A study of Mus musculus with 4 samples.

Results

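The genes of the nuclear pore and the nuclear lamina were examined by RNA sequencing in LSK cells of the fetal liver, the Lin-Sca-1+c-Kit+ fraction in which hematopoietic stem cells and multipotent progenitors are enriched. The set held 37 genes chosen by name, 28 of the nuclear pore complex and 9 of the lamina and the inner nuclear membrane. Each matched 1 gene name in the deposited table of 39186 genes. Cells came from C57BL/6 embryos that were *Pich*-WT (2 samples) or *Pich*-KO (2 samples). The knockout is a germline TALEN allele with a small deletion at the start of exon 2 of the X-linked *Pich* gene, and by the study's methods LSK cells were sorted from E14.5 livers. The labels do not say how many embryos made up a sample, so that p-values measure only the spread between these samples, which may be technical.

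The nuclear pore complex is a ring-shaped assembly of nucleoporins that spans the nuclear envelope and carries the traffic of proteins and RNA. An outer ring (the Y complex) and an inner ring form its scaffold, membrane nucleoporins anchor it, nucleoporins rich in phenylalanine-glycine repeats fill the channel, and filaments and a basket extend to the cytoplasm and the nucleus. Beneath the inner nuclear membrane lies the lamina, a mesh of A-type and B-type lamins held to the membrane and to chromatin by proteins such as the lamin B receptor, LAP2, emerin, the SUN proteins and BAF. The envelope is taken apart and rebuilt in each mitosis, the stage at which PICH acts on ultrafine DNA bridges.

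Reads on genes numbered 14703215 to 20933919 per sample. Values are normalized counts, meaning reads per gene divided by a size factor for each sample, and are given as *Pich*-KO samples 1 and 2 against *Pich*-WT samples 1 and 2. Expression of the PICH gene, listed as *Ercc6l*, was 1142 and 1232 in *Pich*-KO against 772 and 661. As the deletion leaves most of the transcript, this level does not check the genotype. Markers of stem and progenitor cells were present in all samples, with a summed normalized count of 19448 to 29639 over 10 genes, of which 1 was higher and 4 were lower in *Pich*-KO by limma. The higher gene was *Ly6a* (3586 and 2978 against 901 and 1061). The lower genes were *Hlf* (652 and 317 against 2172 and 2548), *Mecom* (216 and 135 against 720 and 751), *Gata2* and *Slamf1*. By limma, 7.58% of all genes tested were higher and 9.6% lower. Of genes with a mean of at least 500, 26.8% were higher and 19.7% lower. Most markers of 4 other cell types were lower in *Pich*-KO. The 12 macrophage markers, all lower, summed to 9132 and 7915 against 55455 and 56359. The 6 endothelial markers, all lower as well, summed to 2390 and 1449 against 28294 and 19049. The 10 erythroid markers (9 lower) summed to 34406 and 36800 against 198896 and 140273. Of 8 hepatoblast markers 5 were lower, with sums of 3037 and 2554 against 4788 and 4258. Of the 6 neutrophil and monocyte markers 2 were higher, *Mpo* and *Ly6c2*, and 4 did not pass. Their sums were 57321 and 103243 against 13514 and 15941, most of it *Mpo* (54647 and 90492 against 10351 and 12533). *S100a8* and *S100a9* were below both *Pich*-WT samples in *Pich*-KO sample 1 and above both in sample 2. No macrophage marker was at 0 in *Pich*-WT, and in *Pich*-KO only *Vsig4* was at 0, in sample 2. *Pich*-WT sample 2 had 0 reads on Y-linked genes, where the other samples had 1607 to 2848. It had 699 reads on *Xist*, where the other samples had 4 to 13. By these reads the samples were not all of the same sex, which the labels do not give.

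The test was limma, run on log2(normalized count + 1) for the 32428 genes whose mean reached 1, with Benjamini-Hochberg adjustment over all of them and a threshold of 0.05. A log2 difference is the mean of *Pich*-KO minus the mean of *Pich*-WT on this scale, written with its standard error (SE) after ±. Of the 37 nuclear pore and lamina genes, 24 rose and 4 fell in *Pich*-KO LSK cells, and 9 did not pass. Among all genes tested, 7.58% were higher and 9.6% were lower. Every member had a mean of at least 637, so a nearer background, added after the values were seen, is the 6453 genes at a mean of at least 500, of which 26.8% were higher and 19.7% lower. The median log2 difference of the members was 0.54, against 0.02 for all genes tested and 0.11 for those with a mean of at least 500. When edgeR was run on the reads, 28 members were higher and 4 lower, against 18.6% and 20.7% of the genes it tested. In bulk samples a change in the share of a cell type and a change of RNA per cell cannot be told apart, and the part of the other cell types in these results was not tested.

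The values of *Pich*-KO and *Pich*-WT did not overlap for 36 of the 37 genes, the exception being *Emd*. This was so for 56.1% of all genes tested and for 82% of those with a mean of at least 500. In 31 of the 36 the higher values were those of *Pich*-KO. Among all genes tested, this was so for 9377 of the 18197 genes without overlap, which is 28.9% of all genes tested. With 2 samples against 2, an exact permutation test of a single gene cannot go below p = 0.333, and the adjusted p of a gene leans on the spread of other genes with a like mean. With a prior variance that did not follow the mean, limma called 0 members, although 16 were higher and 2 lower at an unadjusted p under 0.05.

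**Figure D1:**
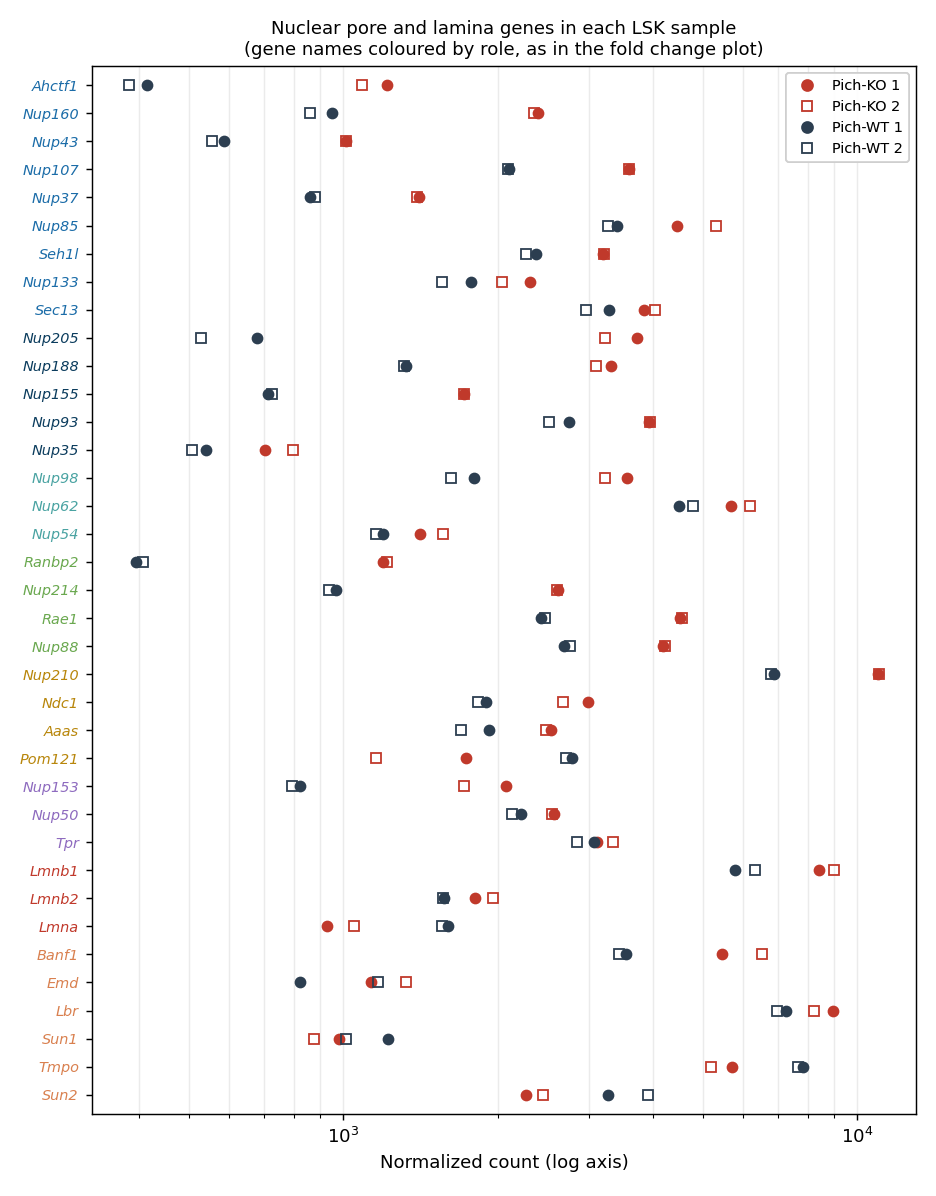
Normalized count (log axis) of each of the 37 genes in the 2 *Pich*-KO samples (red) and the 2 *Pich*-WT samples (dark), with genes grouped by role and ordered by fold change within a role. In 31 genes both red points lie to the right of both dark points and in 5 genes to the left, and in *Emd* they overlap.

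The nuclear pore and the lamina differed in how often their genes were called. Of the 28 pore genes, 22 were higher and 1, *Pom121*, was lower, with a median log2 difference of 0.65. Of the 9 lamina and inner membrane genes, 2 were higher and 3 lower, with a median of 0.26. The difference between these sets was not tested. Among genes with a mean of at least 500, 26.8% were higher and 19.7% lower. The counts of the 9 lamina and inner membrane genes are near these shares for so few genes. They are no result about the lamina as a group. Summed over the 28 pore genes, the normalized count was 85950 and 85336 in *Pich*-KO against 55292 and 53322. Summed over the 9 lamina genes it was 35622 and 36610 against 32902 and 33633. As a share of all normalized counts of a sample, the pore genes made up 0.519% and 0.511% against 0.338% and 0.343%, and the lamina genes 0.215% and 0.219% against 0.201% and 0.216%. The pore sums were apart on both scales, whereas the lamina sums did not overlap as normalized counts but did as shares.

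**Figure D2:**
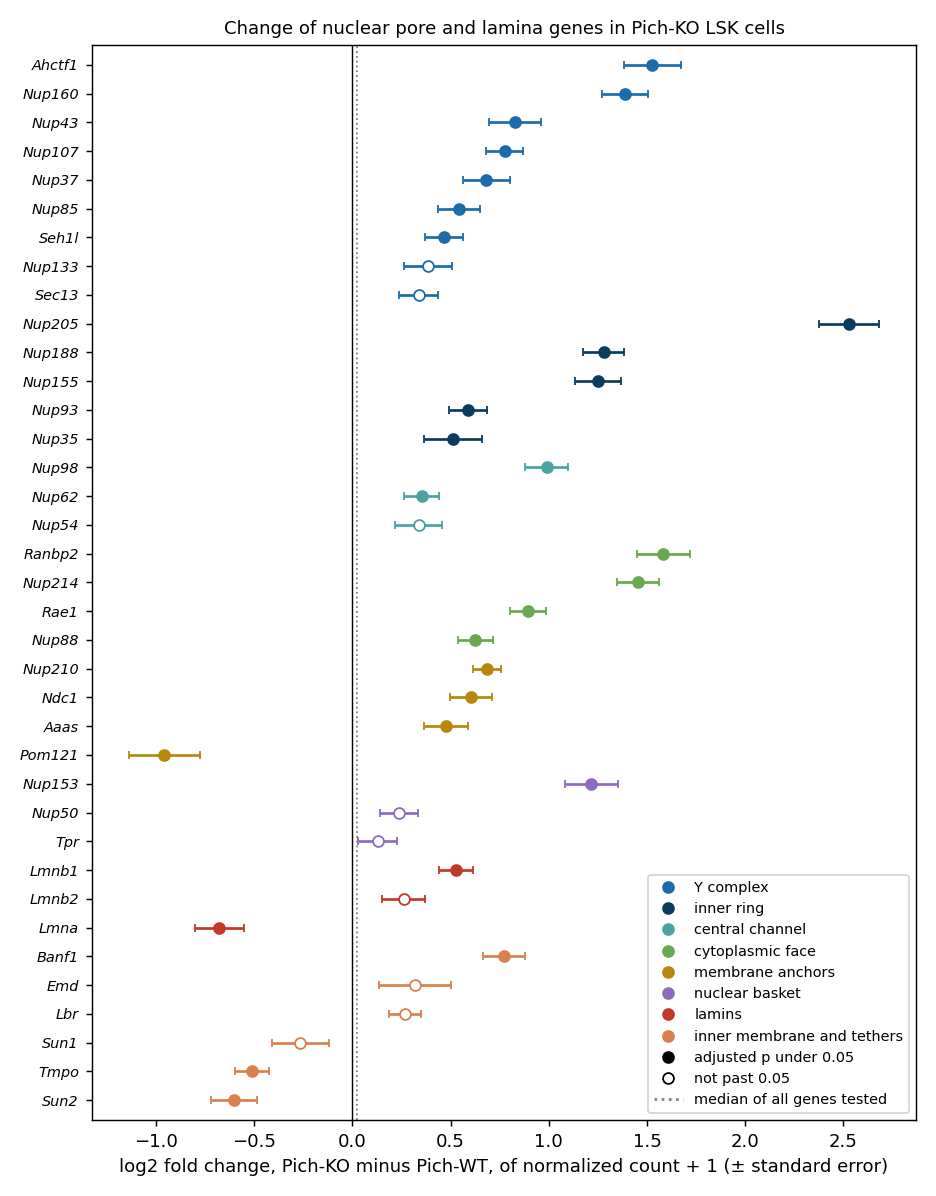
Log2 difference of each gene, *Pich*-KO minus *Pich*-WT, with its standard error from limma, coloured by role (filled points have an adjusted p under 0.05). *Nup205* stands farthest to the right at 2.53, and *Pom121*, *Lmna*, *Sun2* and *Tmpo* are the filled points to the left of 0.

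All 5 inner ring genes were higher in *Pich*-KO, with a median log2 difference of 1.25. *Nup205* (ENSMUSG00000038759, chromosome 6, 35177421 to 35247596, plus strand, GRCm38), a large scaffold nucleoporin, changed most of all members. Its normalized count was 3720 and 3226 in *Pich*-KO against 679 and 529, a log2 difference of 2.53 ± 0.15 (limma adjusted p = 5.98e-05). The groups were far apart, with a ratio of means of 5.75, and 99.3% of genes with a mean of at least 500 had a smaller log2 difference. *Nup188*, a scaffold protein related to Nup205, had 3315 and 3098 against 1326 and 1311, a log2 difference of 1.28 ± 0.10 (limma adjusted p = 0.00018). *Nup155*, which links the inner ring to the membrane, had 1715 and 1714 against 714 and 726, a log2 difference of 1.25 (limma adjusted p = 0.000355). *Nup93*, the scaffold protein to which both Nup205 and Nup188 bind, rose less, from 2745 and 2509 to 3936 and 3950, a log2 difference of 0.59 (limma adjusted p = 0.00447). *Nup35*, which touches the membrane, had 704 and 797 against 542 and 507 (log2 difference 0.51, limma adjusted p = 0.0495). It was above the threshold in other settings, with a limma adjusted p of 0.0751 when no filter was set, 0.0679 after scaling by total reads and 0.0609 with a pseudocount of 0.1. *Dusp19*, which overlaps it on the same strand, had a mean of 162 in *Pich*-KO and 103 in *Pich*-WT.

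Within the inner ring the transcripts did not move in step. Counts per kilobase of gene length, the scale on which genes can be set side by side, gave *Nup205* to *Nup93* ratios of 0.432 and 0.374 in *Pich*-KO against 0.113 and 0.0964. The ratio of *Nup188* to *Nup93* was 0.574 and 0.535 against 0.330 and 0.356. Both ratios were higher in each *Pich*-KO sample than in each *Pich*-WT sample, and the smallest p of an exact permutation test on these 4 values is 0.333.

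The 9 genes of the Y complex all had a positive log2 difference, from 0.34 to 1.53, and 7 were called higher. *Ahctf1* (chromosome 1, 179744894 to 179803680, minus strand) encodes ELYS, which binds chromatin and begins pore assembly at the end of mitosis. It had 1218 and 1087 normalized counts in *Pich*-KO against 415 and 383, a log2 difference of 1.53 ± 0.14 (limma adjusted p = 0.000352). *Nup160* rose from 952 and 861 to 2391 and 2352, a log2 difference of 1.39 ± 0.12 (limma adjusted p = 0.000208). These genes stood above the rest of the complex, with ratios of means of 2.89 and 2.62. *Nup43*, *Nup107*, *Nup37*, *Nup85* and *Seh1l* followed with log2 differences of 0.83, 0.78, 0.68, 0.54 and 0.47 and adjusted p-values of 0.00108 to 0.0123 (limma). *Nup133*, at 0.38 (limma adjusted p = 0.0734), and *Sec13*, which also serves in the coat of vesicles that leave the endoplasmic reticulum, at 0.34 (limma adjusted p = 0.0516), did not pass. Both passed by edgeR and with at least 10 reads in every sample.

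On the cytoplasmic face, from which messenger RNA is released, all 4 genes were higher. *Ranbp2* (chromosome 10, 58446920 to 58494356, plus strand) encodes Nup358, the main protein of the cytoplasmic filaments and a SUMO ligase. Its normalized count was 1195 and 1214 in *Pich*-KO against 395 and 407, a log2 difference of 1.58 ± 0.13 (limma adjusted p = 0.000223). *Nup214* (chromosome 2, 31974436 to 32053975, plus strand), a part of the mRNA export platform, had 2613 and 2603 against 966 and 936, a log2 difference of 1.45 ± 0.11 (limma adjusted p = 0.000126). For both genes the samples of a group lay close together and the groups were separated by a wide gap. *Nup88*, the partner of Nup214, had 4178 and 4229 against 2688 and 2756 (log2 difference 0.63, limma adjusted p = 0.00238). *Rae1*, an mRNA export factor that binds Nup98, had 4519 and 4567 against 2427 and 2463 (log2 difference 0.89, limma adjusted p = 0.000456).

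Among the 3 channel genes, *Nup98* had the largest change. Its transcript encodes a precursor that is cut into Nup98 and the Y complex protein Nup96, which gene counts cannot separate. It had 3556 and 3227 normalized counts in *Pich*-KO against 1794 and 1623, a log2 difference of 0.99 ± 0.11 (limma adjusted p = 0.000711). *Nup62*, whose protein forms the core of the channel together with Nup54, rose by 0.35 (limma adjusted p = 0.0296), a call lost when no filter was set (limma adjusted p = 0.0604) and after scaling by total reads (limma adjusted p = 0.0671). *Nup54* had a log2 difference of 0.34 and did not pass (limma adjusted p = 0.101).

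The 3 genes of the nuclear basket did not change alike. *Nup153*, which brings import complexes to the basket, had 2071 and 1715 normalized counts in *Pich*-KO against 825 and 795, a log2 difference of 1.22 ± 0.13 (limma adjusted p = 0.000699). *Tpr*, which builds the filaments of the basket, had 3115 and 3352 against 3072 and 2843, a log2 difference of 0.13 ± 0.10 (limma adjusted p = 0.468). The nearest values of the groups for *Tpr* differed by less than the spread within either group. *Nup50*, a partner of Nup153 in import, had 2564 and 2547 against 2211 and 2124, and with a log2 difference of 0.24 it did not pass (limma adjusted p = 0.16).

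The membrane anchors went in both directions. *Nup210*, a large transmembrane nucleoporin, had 10977 and 11014 normalized counts in *Pich*-KO, the highest of the set there, against 6876 and 6794 in *Pich*-WT, a log2 difference of 0.69 ± 0.07 (limma adjusted p = 0.000563). *Ndc1*, needed to insert the pore into the membrane, rose by 0.60 (limma adjusted p = 0.0064), and *Aaas*, encoding its partner ALADIN, by 0.48 (limma adjusted p = 0.0212). *Pom121* (chromosome 5, 135376141 to 135394546, minus strand), the third transmembrane nucleoporin, was the single pore gene that fell. Its normalized count was 1730 and 1155 in *Pich*-KO against 2782 and 2708, a log2 difference of −0.96 ± 0.18 (limma adjusted p = 0.00824). The *Pich*-KO samples differed from each other more than the *Pich*-WT samples did, and without *Pich*-KO sample 1 and sample 2 the log2 difference was −1.25 and −0.67. Per kilobase, the ratio of *Pom121* to *Ndc1* was 0.511 and 0.381 in *Pich*-KO against 1.30 and 1.31, whereas the ratio of *Nup210* to *Ndc1* was 1.73 and 1.94 against 1.71 and 1.75.

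Some members overlap a gene on the other strand, and as the sources used here do not state whether reads were counted by strand, reads of such pairs cannot be told apart. *Nsun5* overlaps *Pom121* and had a mean of 1205 in *Pich*-KO and 678 in *Pich*-WT, a difference opposite to that of *Pom121*. *Fam78a*, which overlaps *Nup214*, had 823 against 1359, also opposite to its partner. *Pcmt1*, which overlaps *Nup43*, had 2251 against 2128. *Odr4*, which overlaps *Tpr*, had 745.6 against 714.9, and *Rabep1*, which overlaps *Nup88*, had 525 against 489.5. *Nup205*, *Ranbp2*, *Nup160* and *Nup155* overlap no other gene of the table.

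The promoters of the 3 members with the largest and the 2 with the lowest log2 difference are printed to show the sequence around the RefSeq starts of the genes that moved most. Windows reach from 250 bases before to 50 bases after a RefSeq start on GRCm38.p6, are given 5′ to 3′ on the gene's strand, and have matches to the motifs below in capitals. A window was found for 32 of the 37 members, 40 windows in all, and *Lmna* has 2, both inside the span that the deposited table gives for the gene. The windows of *Ahctf1* and *Ranbp2* lie wholly upstream of the deposited coordinates of these genes.
*Nup205*, chr6:35177366-35177665, strand +: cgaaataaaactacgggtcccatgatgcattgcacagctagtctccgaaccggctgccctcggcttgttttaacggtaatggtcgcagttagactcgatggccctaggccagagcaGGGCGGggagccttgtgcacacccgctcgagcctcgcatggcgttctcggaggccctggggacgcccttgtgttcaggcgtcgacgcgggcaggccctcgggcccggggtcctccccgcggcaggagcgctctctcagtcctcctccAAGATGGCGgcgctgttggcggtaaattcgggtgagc
*Ranbp2*, chr10:58446602-58446901, strand +: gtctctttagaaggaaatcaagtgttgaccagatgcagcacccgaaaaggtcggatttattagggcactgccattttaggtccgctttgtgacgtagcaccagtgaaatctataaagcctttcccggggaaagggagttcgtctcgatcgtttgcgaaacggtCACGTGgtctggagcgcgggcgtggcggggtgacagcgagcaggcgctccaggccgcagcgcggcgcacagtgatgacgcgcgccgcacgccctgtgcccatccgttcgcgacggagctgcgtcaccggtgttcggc
*Ahctf1*, chr1:179803966-179804265, strand -: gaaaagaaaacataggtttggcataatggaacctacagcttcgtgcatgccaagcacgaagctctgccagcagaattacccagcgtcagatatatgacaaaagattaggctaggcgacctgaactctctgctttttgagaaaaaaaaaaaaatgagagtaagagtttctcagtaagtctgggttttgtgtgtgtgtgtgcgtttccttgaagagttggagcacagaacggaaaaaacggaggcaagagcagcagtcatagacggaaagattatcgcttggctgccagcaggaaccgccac
*Pom121*, chr5:135394497-135394796, strand -: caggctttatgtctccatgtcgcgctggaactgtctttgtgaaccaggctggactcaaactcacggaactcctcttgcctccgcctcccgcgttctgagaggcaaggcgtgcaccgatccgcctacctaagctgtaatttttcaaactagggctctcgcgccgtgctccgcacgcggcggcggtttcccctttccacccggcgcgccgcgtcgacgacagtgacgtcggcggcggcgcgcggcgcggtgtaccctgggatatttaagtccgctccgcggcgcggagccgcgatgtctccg
*Lmna* first window, chr3:88503303-88503602, strand -: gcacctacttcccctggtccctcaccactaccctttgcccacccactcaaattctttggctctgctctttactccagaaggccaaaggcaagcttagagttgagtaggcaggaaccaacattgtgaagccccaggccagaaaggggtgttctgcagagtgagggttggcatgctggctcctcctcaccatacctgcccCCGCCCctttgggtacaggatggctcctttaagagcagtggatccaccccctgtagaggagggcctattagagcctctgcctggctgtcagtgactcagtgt
*Lmna* second window, chr3:88493263-88493562, strand -: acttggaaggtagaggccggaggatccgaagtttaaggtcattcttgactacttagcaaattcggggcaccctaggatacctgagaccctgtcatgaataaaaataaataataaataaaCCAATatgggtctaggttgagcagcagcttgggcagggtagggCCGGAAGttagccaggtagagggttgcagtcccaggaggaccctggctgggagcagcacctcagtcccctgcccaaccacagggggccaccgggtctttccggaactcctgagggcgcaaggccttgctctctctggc

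Motifs were searched on both strands in the 40 member windows and in all 32851 windows of the table. The GC box GGGCGG was present in 65% of member windows and 35.7% of all, CCAAT in 47.5% and 37.4%, the ETS motif CCGGAAG in 25% and 8.86%, and the YY1 motif AAGATGGCG in 12.5% and 1.4%. The E2F motif GGCGGGAA, which can overlap a GC box, was in 10% and 2.19%, the E-box CACGTG in 10% and 7.15%, and the NRF1 motif in 7.5% and 0.971%. The interferon-stimulated response element was in 0 of the 40 member windows and in 3.44% of all. *Nup205* held a GC box and the YY1 motif, and *Ranbp2* an E-box. The windows of *Ahctf1* and *Pom121* held none of these letters. A GC box was found for 13 of the 19 higher and 3 of the 4 lower members with a window. These shares are a description with no test. The windows of all genes were not chosen by expression, whereas every member had a mean of at least 637, so the backgrounds differ in level.

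Of the 3 lamin genes, *Lmna* fell, *Lmnb1* rose and *Lmnb2* did not pass. *Lmna* (chromosome 3, 88480147 to 88509956, minus strand), which encodes lamins A and C, had 930 and 1048 normalized counts in *Pich*-KO against 1601 and 1558, a log2 difference of −0.68 ± 0.12 (limma adjusted p = 0.00716). *Lmnb1*, encoding lamin B1, had 8405 and 9013 against 5768 and 6330, a log2 difference of 0.53 ± 0.09 (limma adjusted p = 0.0044). In neither gene did the groups overlap. *Lmnb2*, encoding lamin B2, had 1805 and 1954 against 1568 and 1565, a log2 difference of 0.26 that did not pass (SE 0.11, limma adjusted p = 0.164). Per kilobase of gene length, the ratio of *Lmna* to *Lmnb1* was 0.0562 and 0.0590 in *Pich*-KO against 0.141 and 0.125. *Lmna* was thus below *Lmnb1* in every sample and more so in *Pich*-KO. *Lmna* had 159 and 180 counts per kilobase in *Pich*-KO, where *Lmnb2* had 421 and 456. In *Pich*-WT *Lmna* had 274 and 267 and *Lmnb2* 366 and 365. That order in *Pich*-WT rests on the gene lengths, as the normalized counts of *Lmna* and *Lmnb2* were close there.

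Of the 6 genes of the inner membrane and its tethers, 1 rose and 2 fell. *Banf1* encodes BAF, a small protein that cross-bridges DNA at the reforming envelope and is known to limit the access of cGAS to nuclear DNA. It had 5452 and 6531 normalized counts in *Pich*-KO against 3540 and 3436, a log2 difference of 0.77 ± 0.11 (limma adjusted p = 0.00194). *Tmpo*, encoding the LAP2 proteins that bind lamins and BAF, had 5705 and 5185 against 7834 and 7668, a log2 difference of −0.51 ± 0.08 (limma adjusted p = 0.00468). *Sun2* had 2264 and 2445 against 3268 and 3913, a log2 difference of −0.60 ± 0.12 (limma adjusted p = 0.00956). By edgeR without *Pich*-WT sample 2 its adjusted p was 0.084. Its protein, like that of *Sun1*, crosses the inner membrane and links the lamina to the cytoskeleton. The groups were apart in these 3 genes. *Sun1* had 979 and 876 against 1223 and 1013, a log2 difference of −0.26 ± 0.15 (limma adjusted p = 0.285).

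*Lbr*, encoding the lamin B receptor, which is also a sterol reductase, had 8950 and 8235 normalized counts in *Pich*-KO against 7277 and 6983. Its log2 difference of 0.27 (SE 0.08, limma adjusted p = 0.0604) did not pass in limma but did by edgeR (adjusted p = 0.0319). *Emd*, the X-linked gene of emerin, had 1130 and 1323 against 822 and 1167. *Pich*-KO sample 1 was below *Pich*-WT sample 2, and the log2 difference of 0.32 did not pass (SE 0.18, limma adjusted p = 0.309). The log2 difference of *Emd* was 0.07 without *Pich*-WT sample 1 and 0.57 without *Pich*-WT sample 2, the sample with no Y-linked reads.

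**Figure D3:**
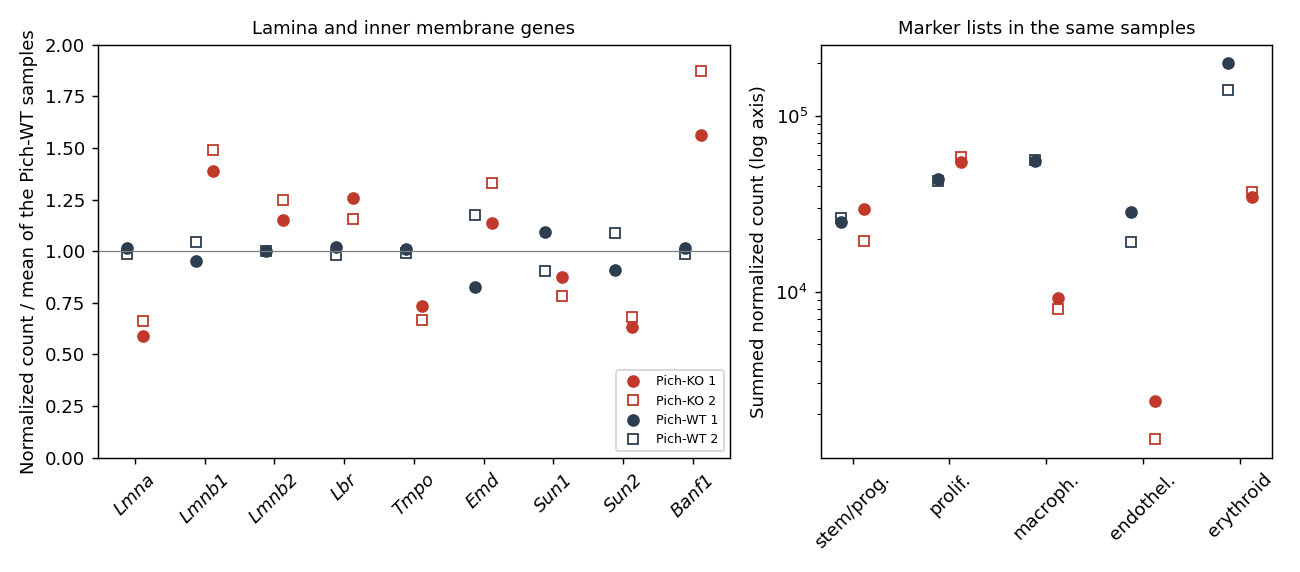
Left, normalized count of the 9 lamina and inner membrane genes in each sample, divided by the mean of the *Pich*-WT samples. Right, summed normalized count (log axis) of 5 marker lists in the same samples. *Lmna*, *Tmpo*, *Sun1* and *Sun2* lie below 1 in both *Pich*-KO samples, in which the macrophage, endothelial and erythroid sums are also lower.

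The genes that fell did so in the samples with fewer reads on macrophage, endothelial and erythroid markers. Those that rose did so in the samples with higher sums of the neutrophil and monocyte markers given above, which were mostly *Mpo*, and of proliferation markers. Of 7 proliferation markers, 6 were higher in *Pich*-KO, where 26.8% of genes with a mean of at least 500 were, with a median log2 difference of 0.41. Their summed normalized count was 54763 and 58198 against 43800 and 42607. The marker not called was *Mki67*, with 3440 and 4072 against 3956 and 3820. Its groups overlapped, and its log2 difference was −0.05 (limma adjusted p = 0.8). The part of these cells and of proliferation in the changes of the pore and lamina genes was not tested.

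Gene length was set beside the changes, as it was not used in choosing the genes. The length, here and for counts per kilobase, is the deposited one, which can be far less than the span of a gene's coordinates. For *Nup205* it is 9306 bases, where the coordinates run from 35177421 to 35247596. The 11 members longer than 8 kb had a median log2 difference of 1.25, with 9 higher and 1 lower, where 30.7% of genes of this length with a mean of at least 500 were higher and 15.7% lower (median 0.14). The 7 members of 5 to 8 kb ran the other way, with a median of −0.26, 2 higher and 3 lower, against 26.9% and 19.3% (median 0.10). The 12 members of 3 to 5 kb had a median of 0.49 with 7 higher, against 23.1% (median 0.05), and the 7 members under 3 kb a median of 0.53 with 6 higher, against 28.3% (median 0.16). The members' medians thus did not rise steadily with length. Across the 37 members, which are not independent replicates, log2 length and log2 difference had a Pearson r of 0.22 and a Spearman rho of 0.25, against 0.03 and 0.01 across the 6453 genes. Long members thus included the largest rises, from *Nup205*, *Ranbp2*, *Ahctf1* and *Nup214*, but also *Tpr* and *Tmpo*.

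**Figure D4:**
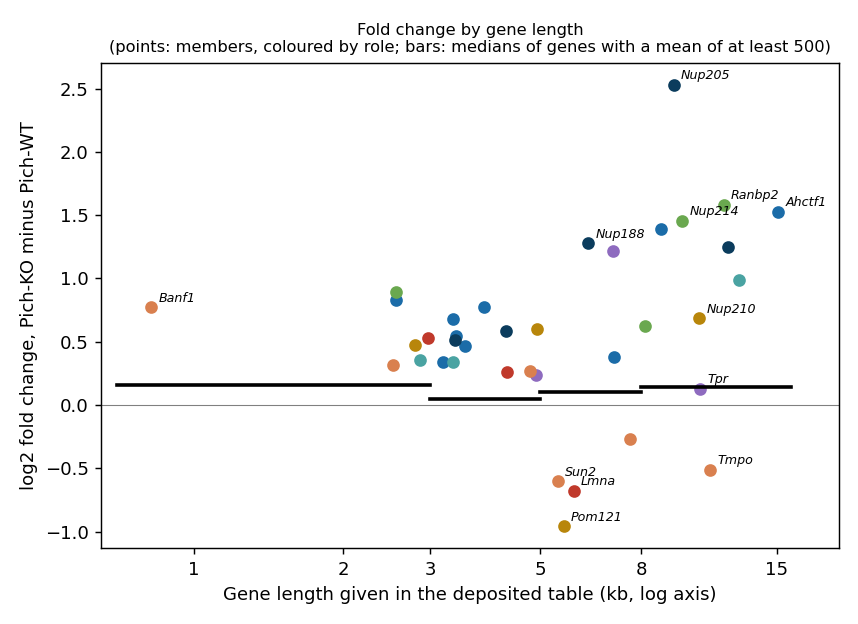
Log2 difference against deposited gene length in kilobases (log axis) for the 37 members, coloured by role as in the fold change plot. Bars lie at the median of all genes with a mean of at least 500 in each of 4 length classes. The bars lie between 0.05 and 0.16, and the members over 8 kb run from −0.51 to 2.53.

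The order of levels per kilobase within the set was much the same at both ends in the groups. *Banf1* was first in *Pich*-WT and in *Pich*-KO, followed by *Lmnb1*, *Nup62* and *Lbr* in both. *Ahctf1* and *Ranbp2* were the lowest in both, *Ahctf1* at 27.5 and 25.3 counts per kilobase in *Pich*-WT and 80.6 and 71.9 in *Pich*-KO, and *Ranbp2* at 33.7 and 34.7 in *Pich*-WT and 102 and 104 in *Pich*-KO. Their values did not overlap in either group. *Nup205* moved from place 34 to place 24 of 37, *Nup188* from 27 to 16, *Pom121* from 15 to 31 and *Lmna* from 23 to 33.

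The transport machinery that uses the pore was described through a further list of 34 genes of transport receptors, the Ran cycle and mRNA export. Of these, 25 were higher and 0 lower in *Pich*-KO by limma, with a median log2 difference of 0.60, where 7.58% of all genes tested and 26.8% of those with a mean of at least 500 were higher. By edgeR 25 were higher and 0 lower too, against 18.6% of its genes higher. At an unadjusted p under 0.05 by limma, 26 were higher and 0 lower. The largest change past the threshold was in *Tnpo2*, an import receptor of RNA-binding proteins, with 1041 and 1012 against 110 and 175, a log2 difference of 2.88 ± 0.23 (limma adjusted p = 0.000173). *Ipo7*, an import receptor, had 3739 and 3480 against 1187 and 1044 (1.70 ± 0.12, limma adjusted p = 8.9e-05). *Ddx19b*, an RNA helicase, had 498 and 534 against 184 and 239 (1.29 ± 0.19, limma adjusted p = 0.00278). The smallest changes past the threshold were well below these. *Nxf1*, the main mRNA export receptor, had 5053 and 5609 against 4408 and 3736 (0.39 ± 0.11, limma adjusted p = 0.0449). *Rangap1*, which activates GTP hydrolysis by Ran, had 5860 and 6611 against 4789 and 4451 (0.43 ± 0.10, limma adjusted p = 0.0173). *Ipo13*, a further transport receptor, had 1753 and 1812 against 1284 and 1353 (0.43 ± 0.11, limma adjusted p = 0.0317). In all 6 genes, which were chosen among those past the threshold, the groups did not overlap. This was so for 29 of the 34 genes and for 82% of genes with a mean of at least 500. *Xpo1*, the main protein export receptor, which is named after its values were seen, had 6493 and 6327 against 3286 and 3030.

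**Figure D5:**
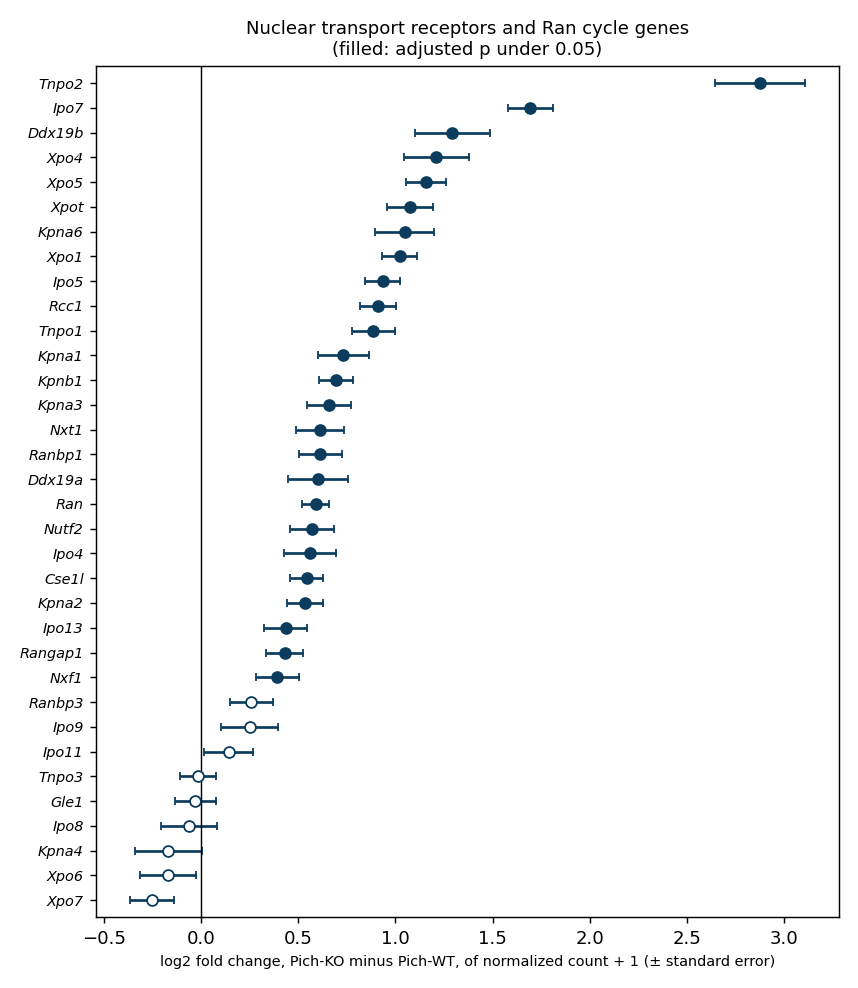
Log2 difference with its standard error for 34 genes of nuclear transport, ordered by size, with filled points for an adjusted p under 0.05. The 25 filled points all lie to the right of 0, from *Nxf1* at 0.39 to *Tnpo2* at 2.88.

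A list of 8 names for pore components matched 6 genes, since *Nup58* and *Nup42* are newer names of *Nupl1* and *Nupl2*. *Nupl1* had at most 1 read in a sample and was not tested. Of the 5 genes tested, 3 were higher, where 7.58% of all genes tested and 26.8% of those with a mean of at least 500 were higher. *Mcm3ap*, whose protein GANP acts in mRNA export, had 1480 and 1337 against 507 and 410 (1.62 ± 0.16, limma adjusted p = 0.000364). *Nup210l* had 70.9 and 117 against 38.3 and 41.0 (1.18 ± 0.34, limma adjusted p = 0.0494), and *Tmem33* had 1791 and 1686 against 1259 and 1286 (0.45 ± 0.11, limma adjusted p = 0.0287).

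Of 20 other envelope genes, 5 were higher and 2 lower, with a median log2 difference of 0.27. This is near the background of genes with a mean of at least 500, of which 26.8% were higher and 19.7% lower, and is no result about envelope genes as a group. *Nemp1* had 413 and 418 against 146 and 132 (1.58 ± 0.19, limma adjusted p = 0.000945). *Syne3*, encoding a nesprin, had 620 and 667 against 232 and 272 (1.35 ± 0.17, limma adjusted p = 0.00123). *Ankle2*, whose protein controls the phosphorylation of BAF, had 1821 and 1756 against 1079 and 1011 (0.78 ± 0.12, limma adjusted p = 0.0028). These were the largest rises, and *Vrk1* and *Tor1aip2* were the other 2 genes called higher. *Tor1aip2*, encoding a partner of torsins, had 3177 and 2586 against 1906 and 1849 (0.61 ± 0.12, limma adjusted p = 0.0118). *Lemd2*, whose LEM domain protein acts with CHMP7 in resealing the envelope, had 86.2 and 100.03 normalized counts in *Pich*-KO against 892 and 613, a log2 difference of −2.98 ± 0.23 (limma adjusted p = 0.000148). *Syne2*, encoding a nesprin that binds SUN proteins, had 99.3 and 65.9 against 227 and 215 (−1.44 ± 0.26, limma adjusted p = 0.00754). *Chmp7* had 1463 and 1231 against 1517 and 1478 and did not pass (log2 difference −0.16, limma adjusted p = 0.489).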

How the data were processed

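RNA of LSK cells from 2 *Pich*-KO and 2 *Pich*-WT fetal liver samples was sequenced. The submitters' processing notes name Bowtie 0.12.2 and the builds mm8 and mm9, without a role. Gene coordinates in the deposited table were those of GRCm38 for 97.8% of the 39131 genes matched by identifier. The counting tool, the annotation and the use of strand are not given in the sources used here. The deposited signal was counts that the authors had divided by a size factor per sample. Whole reads were recovered for 100% of values (tolerance 0.01), giving 14703215 to 20933919 reads per sample.

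Values were compared by limma 3.58.1 in R 4.3.3 with a variance trend on log2(value + 1), for genes whose mean reached 1, with Benjamini-Hochberg adjustment over all genes. Alternatives were edgeR 4.0.16 and DESeq2 1.42.0 on the recovered reads, a pseudocount of 0.1, no filter, at least 10 reads in every sample, scaling by total reads, no variance trend, a replicate block and leaving out each sample. The code was tested on simulated data. Members, lists and tests were chosen with earlier results of these data known. Genes given with the value in every sample were the 6 largest and 6 smallest log2 differences among members, the lamins, *Lbr*, *Sun1*, *Sun2* and *Nup210*, and in each further list the 3 largest and 3 smallest log2 differences past the threshold. Other genes with sample values were chosen after those were seen.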

Additional observations from a re-analysis of the deposited data

How the results depend on the processing

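No member changed direction under any alternative, and the median log2 difference of the 37 members stayed between 0.48 and 0.62. With 4 samples, calls depended on how variance was shared. Without a variance trend, limma called 0 of all genes (5572 with it, 2459 higher and 3113 lower), 0 members (24 higher, 4 lower) and 0 of the other envelope and transport genes (35, of which 33 higher and 2 lower), although 7377 genes had an unadjusted p under 0.05. Leaving out each sample in turn, limma again called 0 in every list, with 22 to 27 members higher and 3 to 4 lower at an unadjusted p under 0.05. The same by edgeR was added after seeing the data. Over both, the counts ran from 0 to 7602 for all genes, 0 to 3685 higher, 0 to 3917 lower, 0 to 30 for members higher, 0 to 4 for members lower, and 0 to 43, 0 to 38 and 0 to 5 for the other list, its higher and its lower genes. In these fits the lone sample of a group is assumed to vary like the other group. By edgeR, *Seh1l*, *Nup35* and *Nup62* lost their call without *Pich*-WT sample 1 or sample 2 (adjusted p 0.051 to 0.171), and *Aaas* (0.114) and *Sun2* (0.084) without sample 2.

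Other settings called 22 to 29 members higher and 4 lower. The deviations of samples with the same number had a correlation of 0.04 over 13924 genes. This gave no sign that the numbers paired the samples, but a single correlation cannot exclude it. With a replicate block 27 members were higher and 4 lower, and 6996 genes were called in all (3122 higher, 3874 lower). Replicates differed by more than sampling noise in both groups. Depth was not limiting for the members, the lowest of which had 383 reads in a sample.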
